A study of Homo sapiens with 192 samples.

Results

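The mucin genes described here are MUC1, MUC2, MUC3A, MUC4, MUC5AC, MUC5B, MUC6, MUC12, MUC13 and MUC17, which were chosen by name and matched by Ensembl identifier, 10 of the 58243 gene identifiers in the count files. They were measured in HT29, LS513, HCT116 and LS174T, established lines of human colorectal cancer (CRC) cells. Every line was cultured in both 2D and 3D, with 24 libraries in all, 3 for each line and condition, and no drug or genetic change is given for any of them. HCT116 was kept in another medium than the other lines, so line and medium cannot be told apart for it. How the 3D cultures for RNA were made is not given in the sources used here. The comparisons address which mucin genes each line expressed, how far 3D growth moved them, and whether the gel-forming and the membrane mucins moved alike.

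Mucins are very large glycoproteins whose protein core carries long stretches rich in serine and threonine, onto which cells build dense chains of O-linked sugar. Gel-forming mucins (MUC2, MUC5AC, MUC5B and MUC6) are secreted and join through cysteine-rich ends into the networks of mucus. MUC2 is the main mucin of the colon's goblet cells, whereas MUC5AC and MUC6 are best known from the stomach and MUC5B from airways and salivary glands. Membrane mucins (MUC1, MUC3A, MUC4, MUC12, MUC13 and MUC17) are anchored in the apical membrane and form the sugar coat of epithelial cells.

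The sequences behind the family resemblance are the tandem repeats of the coding region, and they are shown because reads that align more than once were removed before counting. Each unit was read by a script from the longest GENCODE 29 transcript of the gene, 5′ to 3′ and in the longest open reading frame, with the codons for serine and threonine in capitals.
MUC1: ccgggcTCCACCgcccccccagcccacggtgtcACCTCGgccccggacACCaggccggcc
MUC4: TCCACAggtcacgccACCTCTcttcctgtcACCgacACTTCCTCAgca
MUC13: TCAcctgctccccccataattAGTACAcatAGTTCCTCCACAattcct
MUC17: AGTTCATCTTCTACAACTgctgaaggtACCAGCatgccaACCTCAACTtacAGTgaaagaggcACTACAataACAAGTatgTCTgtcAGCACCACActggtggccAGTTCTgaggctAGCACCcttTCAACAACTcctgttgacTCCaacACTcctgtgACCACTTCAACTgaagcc
MUC2: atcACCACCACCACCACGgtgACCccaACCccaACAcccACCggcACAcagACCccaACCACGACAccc
MUC5AC: cctACAACCAGCACAACCTCTgct
MUC5B: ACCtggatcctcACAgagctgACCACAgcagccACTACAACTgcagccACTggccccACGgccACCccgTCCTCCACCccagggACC

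In GRCh38 coordinates these units lie in exon 2 of MUC1 (chr1:155191481-155191540, minus strand), exon 2 of MUC4 (chr3:195785073-195785120, minus strand), exon 2 of MUC13 (chr3:124927797-124927844, minus strand) and exon 3 of MUC17 (chr7:101033238-101033414, plus strand). Those of the gel-forming genes lie in exon 30 of MUC2 (chr11:1095806-1095874), exon 31 of MUC5AC (chr11:1185655-1185678) and exon 31 of MUC5B (chr11:1250045-1250131), all on the plus strand. Serine and threonine make up 5 of the 20 codons of the MUC1 unit, 14 of the 23 codons of the MUC2 unit and 33 of the 59 codons of the MUC17 unit. Over the whole reading frame they make up between 24.2% of codons in MUC13 and 49.5% in MUC3A. Cysteine codons separate the classes better: they make up between 4.52% and 5.19% of the reading frame in the 4 gel-forming genes, 3.81% in MUC13 and between 0.292% and 0.914% in the other 5 membrane genes. The MUC1 unit occurs 16 times without a mismatch in the transcript and the MUC5AC unit 8 times.

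**Figure D1:**
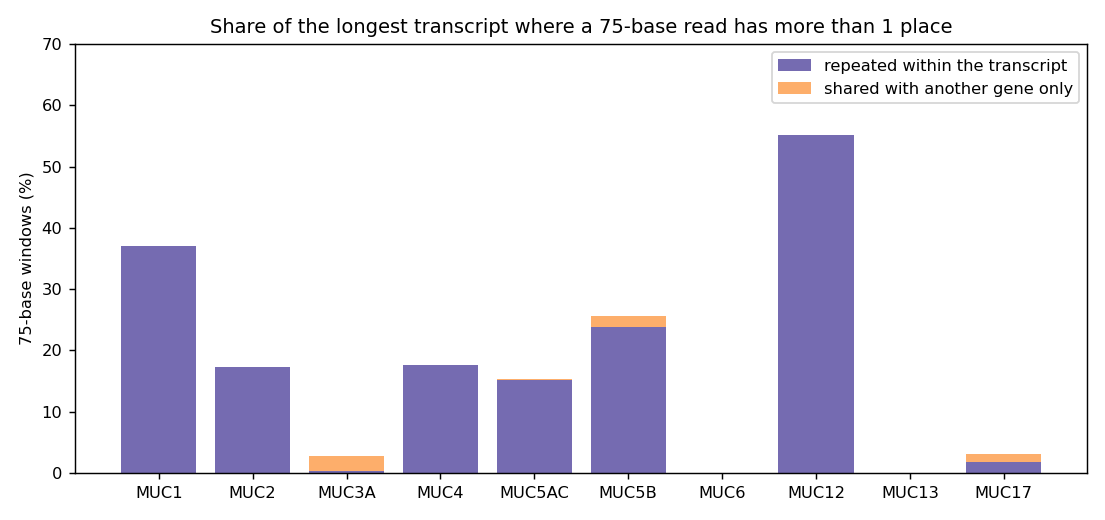
Share of 75-base windows of each gene's longest transcript that are found more than once (vertical axis, percent), split into windows repeated within the transcript and windows shared with another gene only. Genes that overlap the mucin gene count as other genes. MUC12, at 55.2%, and MUC1, at 37.1%, stand highest, and MUC13 has no such window.

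The share of windows of 75 bases, the read length, that recur in the transcript or in another gene was 55.2% for MUC12, 37.1% for MUC1 and 25.6% for MUC5B. The share was 17.6% for MUC4, 17.3% for MUC2 and 15.3% for MUC5AC. It was at most 3.10% for MUC17, MUC3A, MUC6 and MUC13. Windows that MUC5B, MUC3A and MUC17 share with another gene were mostly shared with MUC5B-AS1, AC254629.1 and RN7SKP54, whose exons overlap theirs. A read from such an overlap can still have 1 place in the genome. Windows repeated within the transcript made up 23.8% for MUC5B. Levels of the first group of genes are therefore counted over part of the transcript, and ratios between genes depend on it. These windows come from 1 reference transcript per gene, and whether the lines carry repeat tracts of the same length or use the same transcript was not tested. Exons of MUC5B, MUC12 and MUC17 overlap those of MUC5B-AS1, AC105446.1 and RN7SKP54 over 2.33%, 1.13% and 1.85% of their length. Those of MUC1 overlap AL713999.1, a gene on the same strand with up to 3229 counts in a library, over 48 bases (1.02%). Levels of different genes are compared per kilobase of merged exons, and the share of gel-forming mucins was also computed per kilobase of windows found once.

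Library totals were between 18723942 and 34277421 counts, and levels are given as CPM, a gene's counts relative to its library's total after TMM scaling of that total. A count of 3, the floor that a gene had to exceed, was between 0.0875 and 0.160 CPM before scaling. A gene was called measured in a line where every library of at least 1 growth condition had more than 3 counts, and differences were tested with edgeR's quasi-likelihood test with Benjamini-Hochberg adjustment over 19387 genes, called at an adjusted p under 0.05. The labels do not say whether the 3 libraries of a group came from separate cultures, so p-values measure only the spread between these libraries. Bulk RNA cannot tell more cells that express a gene from more RNA per cell. The epithelial markers EPCAM and CDH1 were present in all 24 libraries. VIL1, a marker of the brush border of intestinal cells, was close to the floor in HCT116. PTPRC, which marks leukocytes, had at most 2 counts in any library. COL1A1, a collagen gene used as a marker of fibroblasts, had between 296 and 655 counts in the libraries of HCT116 and at most 33 in any other, and it did not pass the test between growth conditions in HCT116 (14.1 ± 0.95 and 16.1 ± 5.95 CPM, adjusted p = 0.531). Mitochondrial genes took between 1.14% and 6.40% of counts, with the highest share in replicate 1 of HCT116 in 3D.

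Among the 10 genes the leading mucin was not the same in every line. Per kilobase, MUC13 led in HT29 with 6.13 CPM per kb in 2D and in LS513 with 132.6 CPM per kb, MUC6 led in LS174T with 80.8 CPM per kb, and MUC3A led in HCT116 with 1.91 CPM per kb. The same genes led in 3D, at 15.3, 323.9, 79.1 and 2.74 CPM per kb. Summed over the 10 genes the signal in 2D was 166 ± 15.2 CPM per kb in LS513, 142 ± 8.65 in LS174T, 8.84 ± 1.25 in HT29 and 2.42 ± 0.423 in HCT116 (SD, n = 3).

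**Figure D2:**
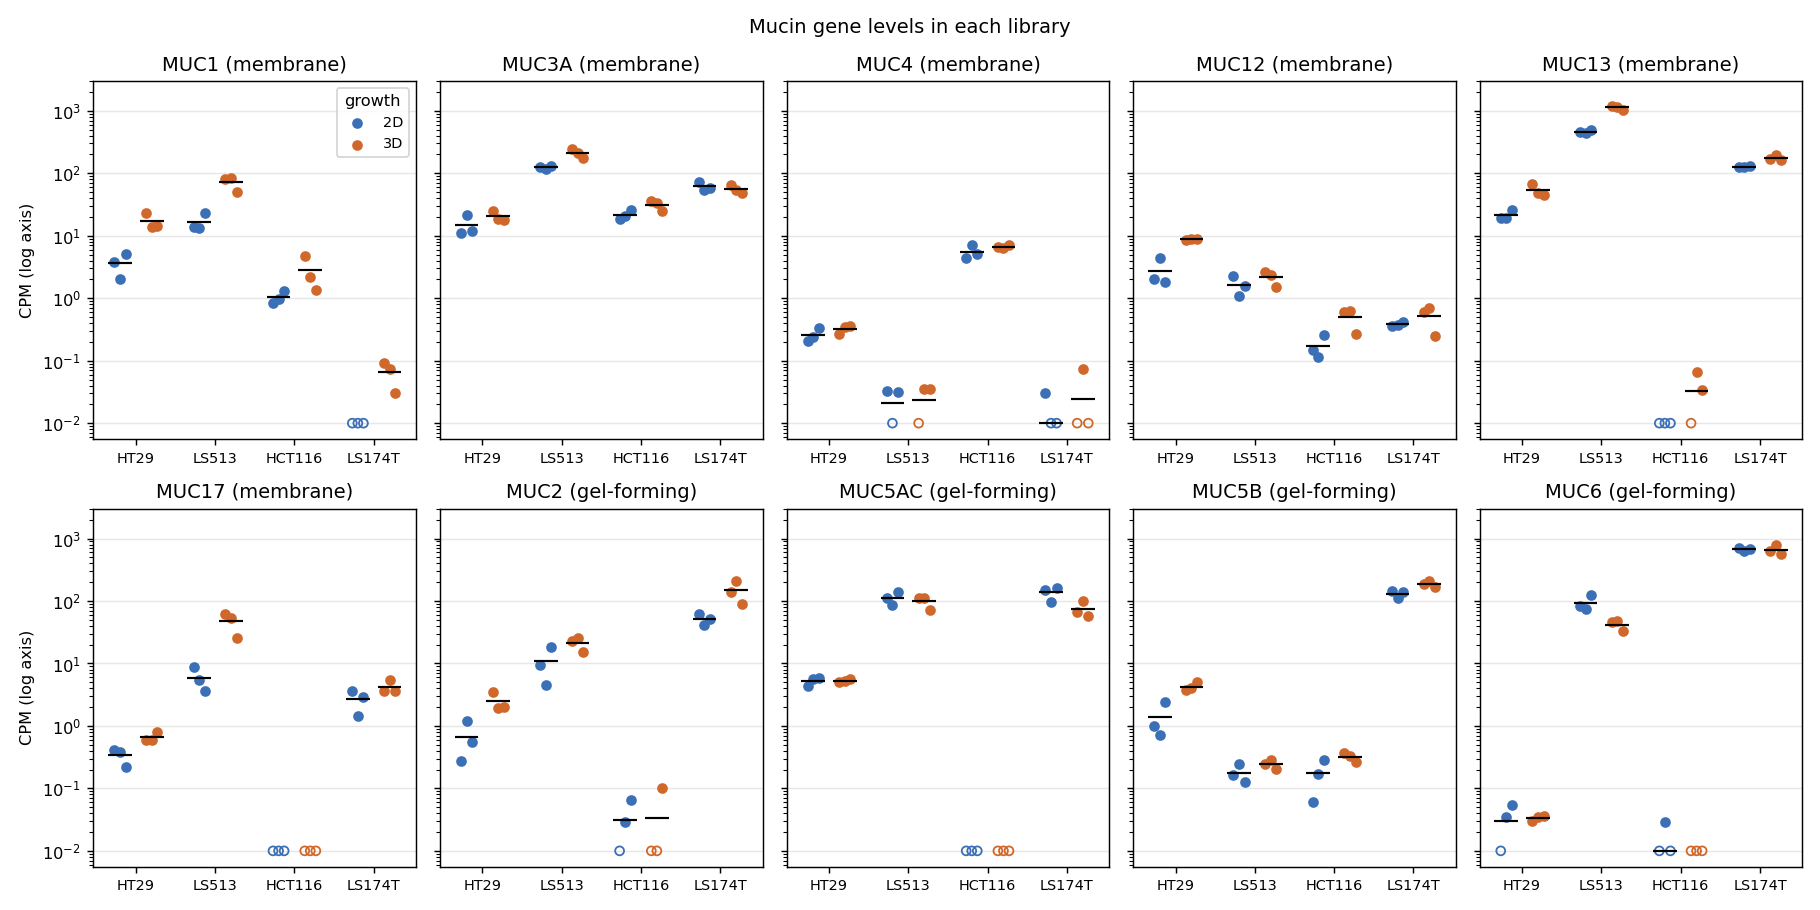
CPM of each mucin gene (log axis) in the 24 libraries, by line, with 2D in blue and 3D in orange. Each point is 1 library, bars mark group means, and open circles drawn at 0.01 CPM are libraries with no count. LS513 stands highest for MUC1, MUC3A, MUC13 and MUC17, LS174T for MUC2, MUC5B and MUC6, HT29 for MUC12 and HCT116 for MUC4.

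The order of the lines was the same in 2D and 3D for MUC1, MUC2, MUC3A, MUC6, MUC12, MUC13 and MUC17. MUC13 ran from LS513 through LS174T and HT29 to HCT116, where no library in 2D had a count and no library in 3D had more than 2. MUC6 was at 680.8 ± 34.1 CPM in LS174T and 93.7 ± 27.0 CPM in LS513 in 2D, and had at most 1 count in any library of HT29 or HCT116. MUC4 stood apart from the rest of the family, with 5.59 ± 1.38 CPM in HCT116 in 2D against 0.258 ± 0.0633 CPM in HT29 and at most 2 counts in any library of LS513 or LS174T. MUC1 had between 41 and 143 counts in the libraries of HCT116 in 3D and between 1 and 3 in those of LS174T in 3D, while the 3 libraries of LS174T in 2D had none.

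Of the 60 pairs of lines compared in 2D over the 10 genes, 58 had at least 1 measured line. Of these, 55 passed the test, beside 64.7% of tests over all tested genes and pairs, whether measured or not. The counts in 3D were the same, beside 65.4%. Neighbours in the order that did not differ beyond their spread were LS174T and LS513 for MUC5AC (adjusted p = 0.303 in 2D and 0.145 in 3D), LS513 and HCT116 for MUC5B (0.972 and 0.55), and LS174T and HCT116 for MUC12 (0.0748 and 0.947). For MUC5AC the means in 2D were 137.1 ± 35.1 CPM in LS174T and 113.2 ± 25.8 CPM in LS513, whereas MUC6 was higher in LS174T by 2.86 on the log2 scale and MUC5B had at most 8 counts in LS513. HCT116 had no count of MUC5AC or MUC17 in its 6 libraries, which allows up to 3 counts per library.

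Growth in 3D raised more mucin genes than it lowered. In HT29, 5 of the 9 measured members rose and no measured member had a negative difference. Of all genes measured in HT29, 46.4% were called, 23.9% higher and 22.5% lower in 3D. LS513 had 4 of 9 that rose and 1 that fell, beside 27.9% of genes called, 16.1% higher and 11.8% lower. HCT116 had 2 of 5 that rose, with the other 3 at positive differences that missed the threshold, beside 32.4% of genes called, 18.5% higher and 13.8% lower. LS174T had 3 of 8 that rose and 1 that fell, beside 25% of genes called, 14.6% higher and 10.4% lower. Libraries were apart with 3D higher for 6 of 9 members in HT29 (30.7% of genes; 29.5% with 3D lower), 4 of 9 in LS513 (26.4%), 2 of 5 in HCT116 (24.8%) and 3 of 8 in LS174T (22.8%). They were apart with 3D lower for 1 member in LS513, MUC6 (23.7% of genes), and for no member in HCT116 or LS174T, where 19.8% of genes were. The median log2 difference of the measured members was 1.32, 0.74, 0.88 and 0.45 in the same order of lines. The median over all tested genes, measured in the line or not, was between 0.00 and 0.02. MUC5B in HCT116 counted as measured through its 3D libraries alone, and its own difference, which was not called, is the median of 0.88 given for that line. The calls in HCT116 rested on single libraries: without replicate 1 in 3D, or without replicate 1 or 2 in 2D, neither MUC1 nor MUC12 passed the threshold, and 1 mucin gene passed without replicate 2 in 3D. The 4 calls in LS174T came to 2 without any 1 of the 2D replicates and to 1 without replicate 2 in 3D.

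**Figure D3:**
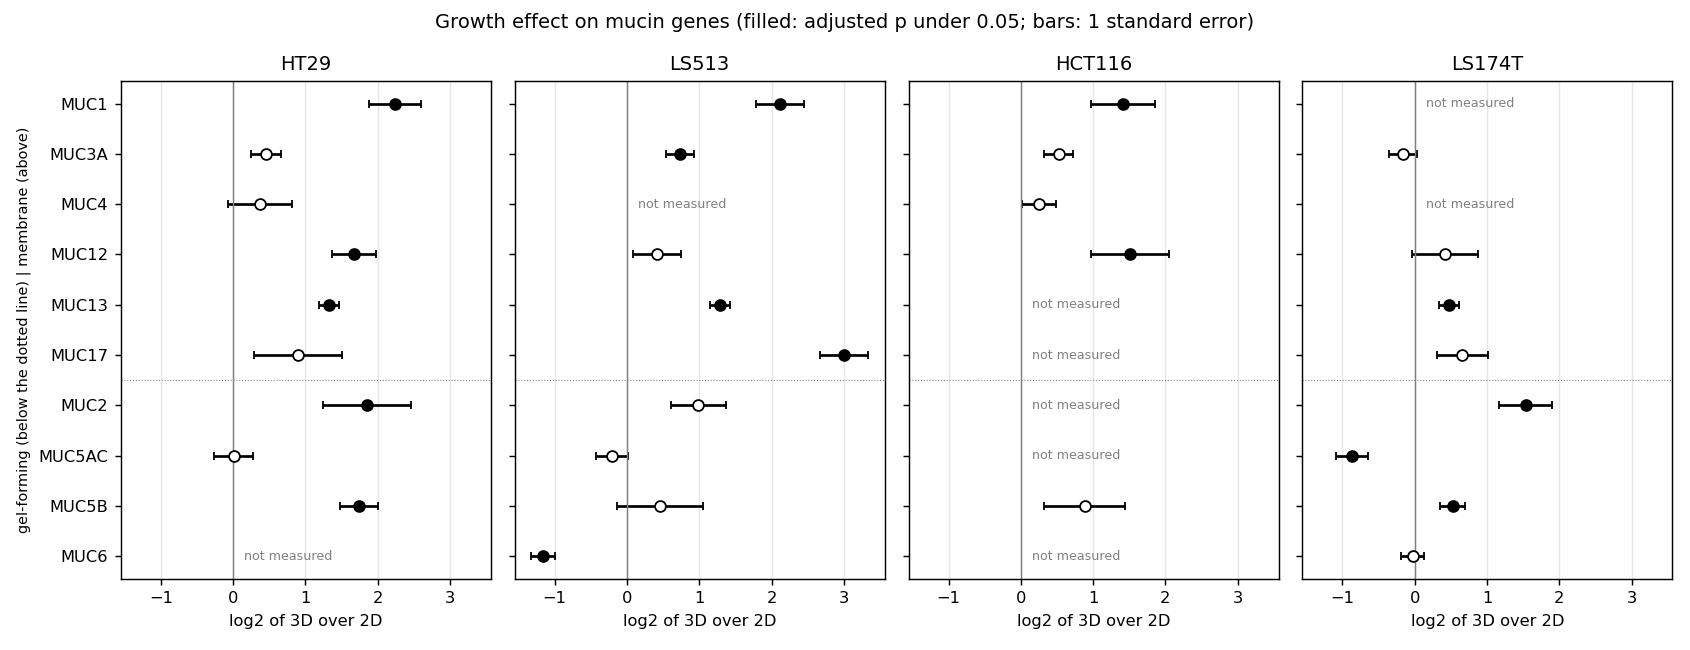
Log2 of 3D over 2D (horizontal axis) for each mucin gene in each line, with membrane mucins above the dotted line and gel-forming mucins under it. Filled points passed an adjusted p of 0.05 and bars are 1 standard error. MUC17 in LS513 lies farthest to the right, at 3.00, and MUC6 in LS513 farthest to the left, at -1.16.

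Among the membrane mucins, MUC1 rose in 3 lines. MUC1 is found on most simple epithelia and its cytoplasmic tail takes part in signalling. In HT29 it stood at 3.84, 2.03 and 5.15 CPM in 2D and at 23.0, 13.7 and 14.1 CPM in 3D, a log2 difference of 2.24 ± 0.36 (SE) with an adjusted p of 7.5e-05. In LS513 it stood at 13.9, 13.3 and 22.8 CPM in 2D and at 81.8, 84.2 and 50.2 CPM in 3D, a log2 difference of 2.11 ± 0.33 with an adjusted p of 9.7e-05. Every 3D library was above every 2D library in both lines. In HCT116 MUC1 was lower throughout, at 0.846, 0.978 and 1.31 CPM in 2D and 4.75, 2.22 and 1.37 CPM in 3D (log2 difference 1.41 ± 0.44, adjusted p = 0.0194). The groups did not overlap, but replicate 1 in 3D stood well above the other 2, and without it the log2 difference was 0.77 with an adjusted p of 0.214. That library also had the highest mitochondrial share of the series, and the part this played was not tested.

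The window upstream of MUC1 is shown because the gene rose in 3 lines. It holds the 250 bases before the RefSeq start (GRCh38.p14, chr1:155192910-155193159, minus strand), read 5′ to 3′, with the letters GGGCGG, the GC box bound by SP1, in capitals.
MUC1: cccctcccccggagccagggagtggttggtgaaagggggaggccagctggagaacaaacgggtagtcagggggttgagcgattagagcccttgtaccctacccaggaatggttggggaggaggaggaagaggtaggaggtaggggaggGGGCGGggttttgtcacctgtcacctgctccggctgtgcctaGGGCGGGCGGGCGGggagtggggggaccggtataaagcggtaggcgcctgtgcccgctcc
The letters matched 4 times, with 3 of the matches overlapping one another, and 42.6% of 35116 windows of the same length hold at least 1 match on either strand.

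MUC13, a membrane mucin with a short extracellular part that is abundant in the large bowel, had the smallest errors of the family. In LS513 it went from 457, 438 and 496 CPM in 2D to 1213, 1156 and 1030 CPM in 3D (log2 difference 1.29 ± 0.14, adjusted p = 7.0e-07). In HT29 it went from 19.2, 19.2 and 26.0 CPM to 67.3, 48.8 and 44.3 CPM (1.32 ± 0.14, adjusted p = 5.0e-07). In LS174T the same gene went from 125, 125 and 131 CPM to 171, 196 and 164 CPM (0.48 ± 0.14, adjusted p = 0.0158). The 3D libraries lay above the 2D libraries in all 3 lines, with fitted differences of 2.51-fold in HT29, 2.44-fold in LS513 and 1.39-fold in LS174T. The call in LS174T held in 3 of the 6 fits that left out 1 of its libraries, with adjusted p up to 0.0662.

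MUC17, a long membrane mucin of the small-bowel brush border, had the largest change of the family. In LS513 it stood at 8.66, 5.47 and 3.67 CPM in 2D and at 61.9, 54.4 and 25.9 CPM in 3D, 7.99-fold higher (log2 difference 3.00 ± 0.33, adjusted p = 2.6e-06). Replicate 3 was the lowest library in both conditions, yet in 3D it was still above every 2D library. In HT29 MUC17 had between 4 and 12 counts in 2D and between 17 and 22 in 3D. The groups did not overlap there but the difference did not pass the test (0.90 ± 0.61, adjusted p = 0.254). In LS174T the groups overlapped, with 3.68, 1.45 and 2.90 CPM in 2D and 3.65, 5.36 and 3.69 CPM in 3D (adjusted p = 0.188).

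The windows upstream of MUC13 and MUC17 are shown together because both genes rose with MUC1 in LS513. They hold the 250 bases before the RefSeq starts in GRCh38.p14, at chr3:124934752-124935001 (minus strand) for MUC13 and chr7:101019831-101020080 (plus strand) for MUC17, with the letters GATAA, which GATA factors bind, in capitals on either strand.
MUC13: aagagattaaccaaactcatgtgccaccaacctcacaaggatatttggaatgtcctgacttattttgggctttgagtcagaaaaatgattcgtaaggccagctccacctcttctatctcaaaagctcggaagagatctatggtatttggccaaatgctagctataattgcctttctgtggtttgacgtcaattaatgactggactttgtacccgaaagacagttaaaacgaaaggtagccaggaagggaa
MUC17: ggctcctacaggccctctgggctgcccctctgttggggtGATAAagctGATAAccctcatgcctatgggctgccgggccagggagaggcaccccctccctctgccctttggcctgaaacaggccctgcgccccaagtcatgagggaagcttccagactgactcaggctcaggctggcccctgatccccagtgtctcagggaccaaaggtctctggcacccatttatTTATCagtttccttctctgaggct
GATAA matched 3 times in the MUC17 window and is found in 20.4% of the 35116 windows. None of the 6 motifs searched matched in the MUC13 window, whose GC content was 41.6% against 66.0% for MUC1 and 60.0% for MUC17. The 3 windows have no motif of the 6 in common.

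MUC12, which lies between MUC3A and MUC17 in a cluster of membrane mucins on chromosome 7, rose in HT29. It stood at 2.02, 4.40 and 1.81 CPM in 2D and at 8.69, 8.99 and 8.96 CPM in 3D (log2 difference 1.67 ± 0.31, adjusted p = 1.8e-04). The 3 libraries in 3D were nearly equal and all above those in 2D. In HCT116 it passed the test on few reads, with 5, 4 and 8 counts in 2D and 18, 19 and 8 in 3D (1.51 ± 0.54, adjusted p = 0.0387), and kept the call in 2 of the 6 fits without 1 library. LS513 and LS174T had differences of 0.42 ± 0.33 and 0.42 ± 0.46 with overlapping groups.

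MUC3A, the neighbour of MUC12 and a mucin of intestinal enterocytes, rose in LS513. It went from 127, 116 and 131 CPM to 241, 209 and 176 CPM (log2 difference 0.74 ± 0.19, adjusted p = 0.00721), with no overlap. The call held in 5 of the 6 fits without a library, and the adjusted p was 0.0526 in the other. The differences in HT29 (0.46 ± 0.21, adjusted p = 0.0829), HCT116 (0.52 ± 0.20, adjusted p = 0.0535) and LS174T (-0.16 ± 0.20, adjusted p = 0.597) were short of the threshold. The one in HCT116 depended on the setting. Its adjusted p was between 0.00126 and 0.0522 in the alternative edgeR and DESeq2 fits, and between 0.0269 and 0.222 in the fits without 1 library. In HT29 replicate 2 in 2D, at 21.4 CPM, lay among the 3D libraries, which ranged from 18.0 to 24.8 CPM, and without it the difference was 0.86 with an adjusted p of 0.00199. MUC3A shares 6.50% of its merged exon length with AC254629.1 on the opposite strand. MUC4, a very large membrane mucin that binds the receptor ERBB2, stood at 4.47, 7.13 and 5.17 CPM in 2D and 6.58, 6.44 and 6.99 CPM in 3D in HCT116, which overlapped (log2 difference 0.25 ± 0.23, adjusted p = 0.445).

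Gel-forming mucins moved in both directions. MUC2, the colonic goblet cell mucin, rose in LS174T and HT29. In LS174T it stood at 60.9, 40.8 and 51.1 CPM in 2D and at 140, 213 and 89.1 CPM in 3D, a log2 difference of 1.53 ± 0.37 with an adjusted p of 0.0058. In HT29 it was rare, at 8, 35 and 10 counts in 2D and 115, 57 and 55 counts in 3D (1.85 ± 0.61, adjusted p = 0.0192). The groups did not overlap in either line, although the call in LS174T was lost without replicate 2 in 3D (1.19, adjusted p = 0.0665). In HT29 it held in 4 of the 6 fits without a library, with adjusted p up to 0.091. In LS513 MUC2 stood at 9.52, 4.53 and 18.2 CPM in 2D and 23.3, 25.5 and 15.3 CPM in 3D. Replicate 3 was the highest in 2D and the lowest in 3D, so that the groups overlapped (0.99 ± 0.38, adjusted p = 0.0668), and without replicate 3 in 2D the difference was 1.61 with an adjusted p of 0.00565.

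The window upstream of MUC2 is shown for its match to the letters of CDX factors, among them CDX2, a factor of intestinal identity. Whether CDX2 acts on MUC2 in these lines was not tested. It holds the 250 bases before the RefSeq start (GRCh38.p14, chr11:1074624-1074873, plus strand), with CATAAA, which CDX factors bind, and GATAA in capitals.
MUC2: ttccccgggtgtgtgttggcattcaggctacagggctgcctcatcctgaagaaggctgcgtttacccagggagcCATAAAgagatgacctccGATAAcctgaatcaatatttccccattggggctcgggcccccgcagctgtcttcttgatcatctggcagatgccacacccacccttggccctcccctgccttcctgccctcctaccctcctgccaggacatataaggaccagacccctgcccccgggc
CATAAA is found in 9.64% of the 35116 windows and in no other of the 7 members with a window. MUC5AC, MUC5B and MUC6 were not among the genes with a window.

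MUC5B, best known from the airways, rose in HT29 and LS174T. In HT29 it had 29, 21 and 44 counts in 2D and 125, 115 and 139 counts in 3D (log2 difference 1.74 ± 0.26, adjusted p = 2.0e-05). In LS174T, where in 3D it was higher than in HT29 by 5.46 on the log2 scale, it stood at 143, 111 and 137 CPM in 2D and at 186, 210 and 168 CPM in 3D (0.53 ± 0.18, adjusted p = 0.0354). Both lines showed no overlap, but in LS174T the call held in only 1 of the 6 fits without a library, with adjusted p up to 0.163, and it was lost when the line was fitted alone (0.0526). LS513 and HCT116 had at most 11 counts in any library.

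MUC5AC, a gastric surface mucin, was not called higher in 3D in any line. In LS174T it stood at 152, 96.9 and 162 CPM in 2D and at 67.6, 102 and 56.9 CPM in 3D, a log2 difference of -0.86 ± 0.22 with an adjusted p of 0.0103. The groups overlapped, since replicate 2 was the lowest library in 2D and the highest in 3D. The call held in 5 of the 6 fits without a library and was lost without replicate 3 in 2D, where the adjusted p was 0.0561. It was also lost when the 6 libraries of LS174T were fitted alone (adjusted p = 0.0756). In HT29 the gene was at 5.23 ± 0.773 CPM in 2D and 5.25 ± 0.277 CPM in 3D, and in LS513 at 113.2 ± 25.8 and 98.3 ± 23.4 CPM (SD, n = 3). The log2 differences were 0.01 ± 0.27 and -0.20 ± 0.22, neither past the test.

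MUC6, the mucin of gastric glands, fell in LS513. It stood at 83.3, 73.4 and 124 CPM in 2D and at 46.1, 47.3 and 32.7 CPM in 3D, 2.23-fold lower (log2 difference -1.16 ± 0.17, adjusted p = 2.9e-05), and every 3D library was under every 2D library. In LS174T, where it was the most abundant mucin, the gene stood at 708, 643 and 692 CPM in 2D and 642, 786 and 573 CPM in 3D (-0.03 ± 0.16, adjusted p = 0.94). MUC6 lies beside MUC2, MUC5AC and MUC5B on chromosome 11, on the opposite strand to the other 3, and in LS513 MUC5AC had overlapping groups while MUC6 did not.

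Whether the growth effect differed between lines was tested for each gene with an interaction term, for which 17.1% of all tested genes were called. Among the mucins it was called for 4: MUC13 (adjusted p = 0.0062), MUC17 (0.0083), MUC6 (0.0085) and MUC5B (0.048). For MUC1, MUC2, MUC3A, MUC4, MUC5AC and MUC12 the adjusted p was between 0.097 and 0.99, so that a line in which MUC1 or MUC2 passed the test was not shown to differ from a line in which it did not. The call for MUC5B, measured in all 4 lines, held in 11 of 24 fits that left out 1 library, with adjusted p up to 0.18, and was lost in the sums without technical replicate d (0.059). The others were not measured in every line: MUC13 and MUC17 had no measured level in HCT116, and MUC6 none in HT29 or HCT116. In a test chosen after seeing the data and limited to the lines in which a gene was measured, MUC13 (adjusted p = 0.005) and MUC17 (0.0047) differed between HT29, LS513 and LS174T, beside 13.7% of all tested genes. MUC6 differed between LS513 and LS174T (0.0054), beside 3.62% of genes. With a block of replicate numbers in the term over all 4 lines, MUC17 alone kept the call.

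The make-up of the signal summed over the 10 genes differed with growth as well. Gel-forming genes made up 10.5%, 9.21% and 13.2% of the summed CPM per kb in LS513 in 2D, and 3.41%, 3.64% and 2.77% in 3D. In HT29 they made up 4.19%, 5.32% and 5.02% in 2D and 2.78%, 3.40% and 4.04% in 3D. In LS174T they made up 71.3%, 69.1% and 70.6% in 2D and 64.8%, 67.6% and 62.9% in 3D. The 3D libraries lay under the 2D libraries in these 3 lines. HCT116 had between 0.161% and 0.788% in its 6 libraries, with overlap. These shares are a description with no test. When counts were not divided by length, the shares in LS174T overlapped, at 83.0% to 84.4% in 2D and 80.4% to 83.7% in 3D, while those of HT29 and LS513 stayed apart.

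A lower share was not a lower gel-forming signal in each line. In HT29 the gel-forming signal was 0.431 ± 0.0961 CPM per kb in 2D and 0.73 ± 0.0516 in 3D, while the membrane signal was 8.41 ± 1.16 and 21.2 ± 4.88. In LS174T the gel-forming signal was 99.7 ± 7.63 and 105 ± 20.2 CPM per kb, and the membrane signal 42.0 ± 1.10 and 55.8 ± 4.83. In LS513 the gel-forming signal was lower in 3D, at 18.5 ± 5.16 and 12.3 ± 2.72 CPM per kb, with membrane signals of 148 ± 10.1 and 361 ± 34.7. MUC13 alone took between 77.6% and 82.0% of the sum over the 10 genes in LS513 in 2D and between 85.9% and 88.8% in 3D. MUC20, a mucin gene outside the 10, is not in these shares. It stood at 48.45 CPM per kb in LS513 in 2D and 80.98 in 3D.

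**Figure D4:**
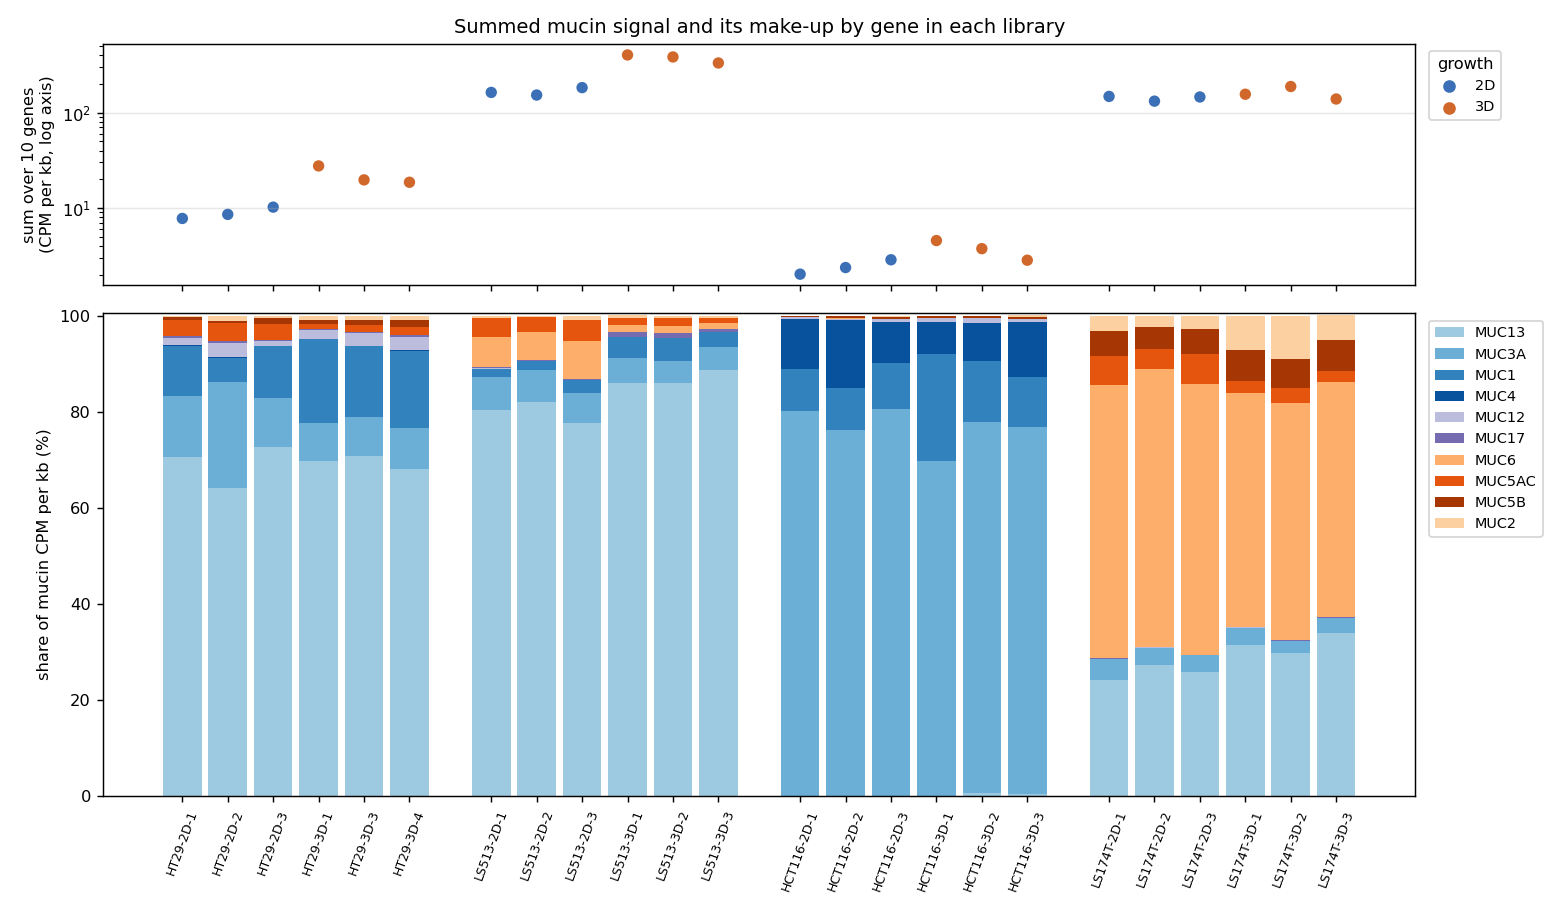
Upper panel: CPM per kb summed over the 10 mucin genes (log axis) in each library, 2D in blue and 3D in orange. Lower panel: share of that sum by gene in percent, membrane mucins in blue and purple and gel-forming mucins in orange and brown. MUC13 fills most of the bars of HT29 and LS513, MUC3A those of HCT116, and MUC6 between 48.8% and 57.9% of those of LS174T.

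Within the gel-forming class, the balance of MUC2 and MUC5AC turned in LS174T. MUC6, also best known from the stomach, stayed above both there, at 80.8 CPM per kb in 2D and 79.1 in 3D. MUC2 stood at 4.02 and 11.6 CPM per kb in LS174T. The ratio of MUC2 to MUC5AC per kb was 0.552, 0.579 and 0.434 in 2D and 2.86, 2.88 and 2.16 in 3D, so that MUC5AC exceeded MUC2 in every 2D library and MUC2 exceeded MUC5AC in every 3D library. In HT29 the ratio was 0.0868, 0.299 and 0.130 in 2D and 0.954, 0.523 and 0.495 in 3D. In LS513 it was 0.116, 0.0715 and 0.181 in 2D and 0.285, 0.316 and 0.295 in 3D. The ratio was higher in every 3D library than in every 2D library of the same line, and stayed under 1 in HT29 and LS513. A ratio shows unequal change of the pair and not which of them changed.

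Of 12 further mucin and mucin-like genes, MUC16, MUC20, MUCL3, CD164 and OVGP1 reached a group mean of 1 CPM. MUC20, a small membrane mucin of kidney and gut, rose in HT29 (log2 difference 1.63, adjusted p = 4.2e-06), HCT116 (2.14, 5.0e-05) and LS513 (0.74, 0.0094). It was the most abundant of the 12 in LS513, at 205.9 ± 13.5 CPM in 2D and 344.1 ± 34.4 in 3D. In the other lines CD164 was the most abundant, at 153.7 CPM in HT29, 143.2 in LS174T and 106.1 in HCT116 in 2D. MUC16, the mucin of the ovarian cancer antigen CA125, stood at 8.11 ± 0.482 CPM in HT29 in 3D, and passed the test in HCT116 on at most 2 counts per library in 2D and 19 in 3D. MUCL3 fell in HT29 by 1.45 on the log2 scale (adjusted p = 0.0018).

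**Figure D5:**
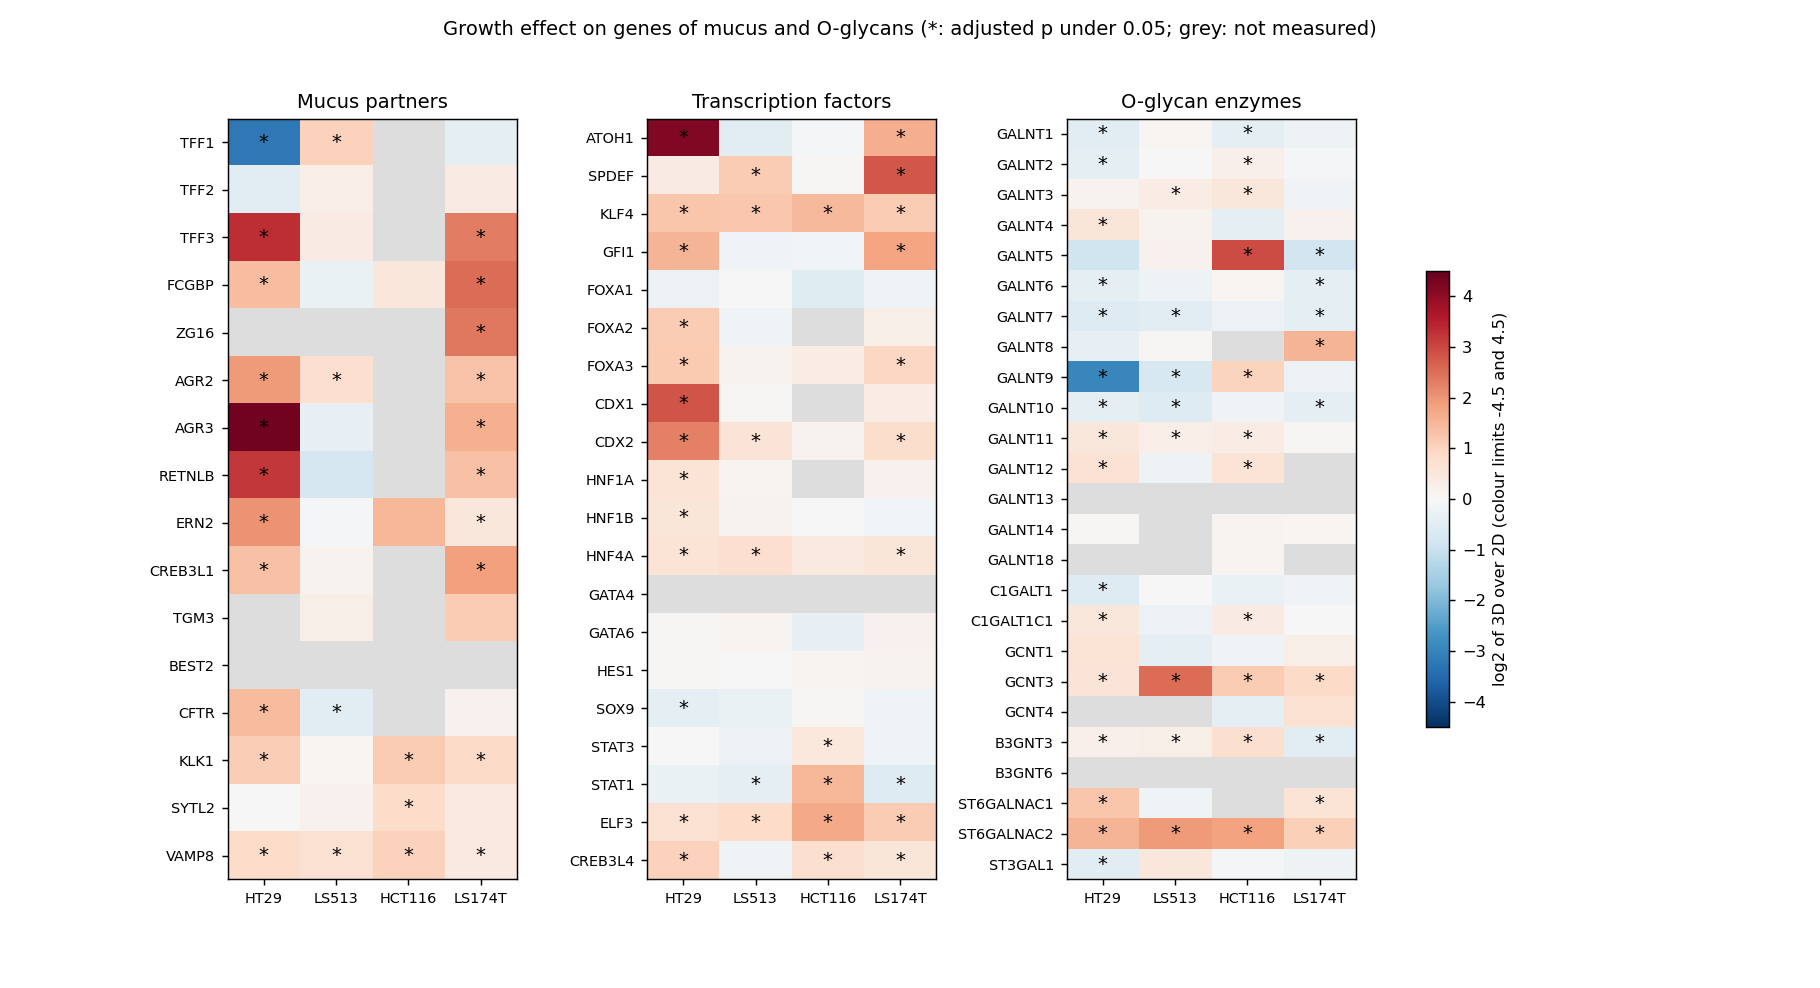
Log2 of 3D over 2D in colour (red higher in 3D, blue lower) for genes of mucus secretion, transcription factors of intestinal and goblet cells, and enzymes of O-linked sugars, by line. Stars mark an adjusted p under 0.05 and grey marks genes not measured in the line. Most mucus partners of HT29 and LS174T are red, TFF1 in HT29 is blue at -3.23, and KLF4 and ELF3 are starred in all 4 lines.

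Among 18 partners of mucus (trefoil factors, proteins that fold, pack or release mucins), 10 of the 13 measured in HT29 rose and 1 fell, and 10 of 15 rose in LS174T with none that fell. LS513 had 3 of 14 that rose and 1 that fell, and HCT116 had 3 of 5 that rose. Of all genes measured in HT29, LS174T, LS513 and HCT116, 23.9%, 14.6%, 16.1% and 18.5% were called higher in 3D, and 22.5%, 10.4%, 11.8% and 13.8% lower. The median log2 differences of the measured genes were 1.40, 1.14, 0.18 and 1.05 for HT29, LS174T, LS513 and HCT116. AGR2, a disulfide isomerase that MUC2 needs to fold, rose in HT29 (1.93, adjusted p = 8.4e-08), LS174T (1.28, 4.1e-05) and LS513 (0.75, 0.0043). TFF3, the trefoil peptide secreted beside MUC2, rose in HT29 (3.33, 2.6e-07) and LS174T (2.32, 7.6e-07), and in LS513 was at 721 ± 29.7 CPM in 2D and 924.8 ± 238.2 CPM in 3D. FCGBP, a mucus protein bound to MUC2, had the largest rise of the list in LS174T, from 34.4 ± 7.58 to 195.4 ± 84.7 CPM (2.50 ± 0.27, adjusted p = 1.1e-06). AGR3 had the largest in HT29, from 0.369 ± 0.294 to 8.14 ± 1.38 CPM (4.34 ± 0.34, adjusted p = 7.3e-09).

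TFF1, the trefoil peptide secreted beside MUC5AC in the stomach, went the other way in HT29. It fell from 9.69 ± 2.94 to 1.04 ± 0.138 CPM there (log2 difference -3.23 ± 0.34, adjusted p = 7.3e-07), and rose in LS513 from 36.1 ± 5.16 to 74.7 ± 22.2 CPM (1.05 ± 0.25, adjusted p = 0.0051). CFTR, the chloride and bicarbonate channel that lets mucus unfold, rose in HT29 (1.44, adjusted p = 1.0e-06) and fell in LS513 (-0.47, adjusted p = 0.0361). In HCT116 the largest rise of the list was KLK1, a serine protease, from 0.587 ± 0.387 to 1.29 ± 0.128 CPM, and VAMP8, which serves the release of granules, rose in all 4 lines by between 0.45 and 1.05.

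Among 21 transcription factors of intestinal and goblet cells, 12 of 19 measured rose in HT29, 9 of 19 in LS174T, 5 of 19 in LS513 and 5 of 16 in HCT116, beside 23.9%, 14.6%, 16.1% and 18.5% of all measured genes, and at most 1 fell in any line. The median log2 differences were 0.63, 0.35, 0.06 and 0.15. ATOH1, which commits cells to the secretory fate, rose in HT29 from 0.309 ± 0.0603 to 5.73 ± 0.959 CPM (4.18 ± 0.28, adjusted p = 3.7e-10) and in LS174T from 4.36 ± 1.12 to 13.5 ± 1.88 CPM (1.63, adjusted p = 2.5e-06). In LS513 it was at 10.1 ± 1.97 CPM in 2D and 7.30 ± 1.18 CPM in 3D (adjusted p = 0.074). SPDEF, which drives goblet cells to mature, had the largest rise in LS174T, from 2.45 ± 0.952 to 16.9 ± 4.16 CPM (2.78 ± 0.24, adjusted p = 2.5e-08), and rose in LS513 by 1.15. CDX2 rose in HT29 from 1.43 ± 0.404 to 6.72 ± 1.13 CPM, in LS174T from a range of 73.8 to 77.8 CPM to one of 127.0 to 136.9 CPM, and in LS513 from 154.0 ± 12.7 to 232.6 ± 19.4 CPM. In HCT116, which had at most 3 counts of MUC2, CDX2 stood at 19.1 ± 1.53 and 21.6 ± 2.35 CPM, and neither ATOH1 nor SPDEF exceeded 8 counts. KLF4 and ELF3, factors of mature epithelium, rose in all 4 lines.

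The 27 enzymes of O-linked sugars were split in HT29 and LS174T, while in HCT116 nearly all that were called rose. HT29 had 8 of 21 measured that rose and 8 that fell, LS513 had 5 of 20 and 3, HCT116 had 10 of 21 and 1, and LS174T had 4 of 21 and 5, with median log2 differences between -0.04 and 0.13. Beside these stand 23.9% of all genes that rose and 22.5% that fell in HT29, 16.1% and 11.8% in LS513, 18.5% and 13.8% in HCT116, and 14.6% and 10.4% in LS174T. GCNT3, which builds the branched core structures of mucins, rose in all 4 lines, with the largest change in LS513, from 22.4 ± 4.60 to 129 ± 18.8 CPM (2.52 ± 0.15, adjusted p = 1.7e-10). ST6GALNAC2, a sialyltransferase, also rose in all 4, by between 1.09 and 1.90. GALNT5, one of the enzymes that place the first sugar, rose in HCT116 from 4.70 ± 1.33 to 35.7 ± 5.77 CPM (2.92 ± 0.23, adjusted p = 3.4e-09) and fell in LS174T from 94.5 ± 4.09 to 51.7 ± 10.4 CPM (-0.87 ± 0.20, adjusted p = 0.0037). GALNT9 fell in HT29 from 1.23 ± 0.0994 to 0.162 ± 0.112 CPM (-2.95 ± 0.33, adjusted p = 3.8e-07). C1GALT1C1, the chaperone without which the core 1 enzyme is not active, was expressed in all 4 lines, between 16.8 and 31.2 CPM in 2D.

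Markers of goblet and of absorptive cells moved with growth beside the mucins. The goblet markers were all counted above, so their counts here are not a separate result. ATOH1 and SPDEF are among the transcription factors, and TFF3, FCGBP, CLCA1, ZG16 and AGR2 among the mucus partners. SLC26A3, an absorptive marker, is also among the mucus partners. Of 8 goblet markers, which include MUC2, 7 of 7 measured rose in LS174T, 5 of 6 in HT29, 2 of 6 in LS513 and none of 3 in HCT116, beside 14.6%, 23.9%, 16.1% and 18.5% of all measured genes. Their summed level ran from 790 to 918 CPM in LS174T in 2D and from 1720 to 3170 CPM in 3D. In LS174T 6 of the 8 exceeded the floor in 2D and 7 in 3D, so that the 7 include a gene measured through 3D alone. Of 8 absorptive markers, all 4 measured rose in LS513, 3 of 3 in HT29 and 2 of 2 in LS174T, and FABP1, a fatty acid carrier of enterocytes, went from 170.1 to 2051 CPM in LS513. In HT29 2 of these markers exceeded the floor in 2D and 3 in 3D, so that the 3 include a gene measured through 3D alone. HCT116 went both ways: KRT20, a keratin of mature enterocytes, rose from 0.646 to 2.50 CPM, CA2, a carbonic anhydrase, fell from 85.3 to 50.4 CPM, and the summed level went from between 85.3 and 87.2 CPM to between 48.5 and 60.9 CPM. Of 5 enteroendocrine markers, PAX4 and INSM1 rose in HT29, where the summed level stayed at or under 4.59 CPM. Both counted as measured there through the 3D libraries alone, which favours a rise. INSM1 had at most 3 counts in any library of HT29 in 2D. Of the 4 leukocyte genes, LYZ, an antibacterial enzyme, was the only one both measured and kept by the filter on low counts, and it rose in HT29 from 1373 to 2550 CPM, in LS513 from 1.99 to 4.09 CPM and in LS174T from 2.05 to 3.54 CPM. VWF, of 3 endothelial genes, rose on few reads in LS513 from 0.0414 to 0.457 CPM and in HCT116 from 0.26 to 0.639 CPM. In LS513 it had at most 2 counts per library in 2D and 14 in 3D, and was measured through 3D alone. In HCT116 it had at most 14 and 22. PECAM1, another of these genes, had at most 4 counts in any library of either line. What these cell-type markers contribute to the mucin changes was not tested.

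The genes whose log levels over the 24 libraries lay closest to each mucin, given with Pearson's r as a description, followed mainly the differences between lines, which all points share. MUC1 lay closest to TMPRSS13, a membrane serine protease (r = 0.974), and MUC13 to HECTD3 (0.992) and TMPRSS2 (0.991). MUC2 lay closest to ACY3 (0.981) and KCNQ1 (0.973), MUC5AC to HEPH (0.987), MUC5B to TMEM132D-AS1 (0.993) and MUC6 to IRF8 (0.994). MUC4, with its signal mostly in HCT116, lay closest to GFPT2 (0.996), and MUC17 to ADD3-AS1 (0.974). MUC3A and MUC12 lay closest to CREG2 (0.972) and CACFD1 (0.965).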

How the data were processed

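PolyA RNA was prepared with a stranded kit and sequenced as single reads of 75 bases. The files the authors deposited hold 1 raw count per gene and technical replicate: reads were trimmed with Trim Galore 0.4.1, aligned with STAR, stripped of reads that aligned more than once and counted with HTSeq 0.5.3. The submitters' notes name hg19 and the study's methods Ensembl release 91, and 99.5% of the gene identifiers are in GENCODE 29 (GRCh38), so coordinates here are those of GENCODE 29 or RefSeq and not of the count files. Counts were summed over 8 technical replicates per library (7 for replicate 4 of HT29 in 3D). Technical replicates varied at the level of sampling noise, and libraries of a group did not.

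Genes were filtered with filterByExpr, which kept 19387, scaled by TMM and fitted over all 24 libraries and 8 groups with edgeR 4.0.16 in R 4.3.3 (robust quasi-likelihood). No replicate pairing was used: correlations of same-numbered 2D and 3D libraries were between -0.126 and 0.0773. On simulated counts for HT29 in 3D against 2D (19330 genes), 186 of 200 changed genes were recovered, with 7 false calls. The simulation gave every gene the same spread and changed only genes with ample counts, so these rates do not cover members with few counts.

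Alternatives were DESeq2 1.42.0, its size factors, a minimum of 1 count, the 6 libraries of a line alone, a block of replicate numbers, sums without technical replicate d, leaving out each library, and other lengths for the shares. The interaction over measured lines only was added after seeing the data. The members, gene lists and tests were chosen with earlier results of these data known. Named genes are the 10 members, further mucins that reached 1 CPM, the largest rise and fall of each list in each line, 6 genes given by level (CDX2, ATOH1, SPDEF, TFF3, AGR2 and C1GALT1C1) and the 2 genes most correlated with each member, on log2 of CPM plus 1. Others named beside a list were chosen after their values were seen.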

Additional observations from a re-analysis of the deposited data

Results flagged for a closer look

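The growth effect differed between lines, by the interaction term of edgeR's quasi-likelihood test with Benjamini-Hochberg adjustment, for 4 mucin genes. The term was fitted over 4 lines, and the values given are those of the lines in which each gene was measured. MUC13 (adjusted p = 0.0062) had log2 differences of 1.32 in HT29, 1.29 in LS513 and 0.48 in LS174T. MUC17 (adjusted p = 0.0083) had 3.00 in LS513, 0.90 in HT29 and 0.66 in LS174T. MUC6 (adjusted p = 0.0085) had -1.16 in LS513 and -0.03 in LS174T. MUC5B (adjusted p = 0.048) had 1.74 in HT29, 0.53 in LS174T, 0.46 in LS513 and 0.88 in HCT116. With the term limited to those lines, the adjusted p was 0.005 for MUC13, 0.0047 for MUC17 and 0.0054 for MUC6. Over 4 lines these 3 genes kept the call in each of 24 fits that left out 1 library, and MUC5B in 11 of 24. With a block of replicate numbers MUC17 alone kept the call (0.015). The adjusted p was then 0.12 for MUC6, 0.05 for MUC13 and 0.47 for MUC5B. MUC5B also lost it without technical replicate d (0.059).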

How the results depend on the processing

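Over the 31 effects of growth on single mucin genes, 167 of 182 alternative values other than leaving out a library stayed on the same side of the threshold in the same direction, 5 fell short of it and 10 newly passed it. Leaving out each library gave 159 of 186 values on the same side, 20 that fell short, 5 that newly passed and 2 that turned: the log2 difference of MUC5AC in HT29 ranged from -0.0615 (without replicate 1 in 2D) to 0.113, and that of MUC6 in LS174T from -0.155 to 0.0673 (without replicate 3 in 3D), none past the threshold. The count of mucin genes called ranged over these fits from 0 to 3 in HCT116 and from 1 to 4 in LS174T. With the 6 libraries of LS174T alone it was 2, since MUC5AC (adjusted p = 0.0756) and MUC5B (0.0526) fell short. With a replicate block, which the numbers do not justify since they share only a number, it was 2 in LS174T (MUC5AC 0.0532, MUC5B 0.0503), MUC1 fell short in HCT116 (0.0642), and the count of genes whose growth effect differed between lines was 1 in place of 4 (MUC17; MUC5B 0.47). That count was 9 with all genes of at least 1 count. In that setting, genes called in the main fit had smaller adjusted p at like log2 differences. For MUC17 in LS513 edgeR's quasi-likelihood test gave 7.8e-56 at 2.997, against 2.6e-06 at 2.999 in the main fit. Some of the values that newly passed the threshold came from that setting. The cause was not tested.

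The gel-forming share rests on the length used. With counts not divided by length it was 14.37% in 2D and 10.88% in 3D in HT29, 25.91% and 9.876% in LS513, and 83.85% and 81.76% in LS174T, and 0.8721% in HCT116 in 3D. Per kb of the longest transcript it was 4.192% in HT29 in 2D, 2.802% in LS513 in 3D, and 67.59% and 61.93% in LS174T. Per kb of windows found once, an alternative chosen after seeing the data, it was 68.14% in LS174T in 2D. Depth limits MUC2 and MUC17 in HT29, MUC4 in HT29, MUC5B in LS513 and HCT116, and MUC12 in HCT116 and LS174T, where a library has under 20 counts.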
